A study of Saccharomyces cerevisiae with 44 samples.

Results

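The centromere cores are the stretches of each chromosome within 10 kb of a centromere (CEN). They were chosen by position alone, as the 50-bp bins of the replication profiles whose distance to a given centromere position is under 10 kb, and they hold 6400 of the 241434 bins of the 16 nuclear chromosomes, or 2.65%. Each of the 16 cores has 400 bins, and each was split at the centromere into a left arm (lower coordinates) and a right arm of 10 kb, which gives 32 arms. Replication in *Saccharomyces cerevisiae* was measured by quantitative BrdU-IP-seq (QBU), in which DNA made early in S phase takes up the thymidine analogue BrdU, is recovered with an antibody (IP) and is sequenced next to total DNA that went through no antibody step (Total). The 10 strains included WT and dbf4∆C (without the C-terminal end of Dbf4). In dbf4-Zn*1 cysteines of the Zn finger were changed to alanine, and in dbf4-Zn*2 a histidine was changed to cysteine. The others were ctf19∆, fkh1∆, fkh1∆ fkh2-dsm (Fkh1 absent and the dsm allele of Fkh2), ctf19∆ fkh1∆ fkh2-dsm, fkh1∆ dbf4-Zn*1 and fkh1∆ dbf4-Zn*2. The study's text treats fkh1∆ fkh2-dsm as equal to loss of both proteins in origin regulation, without the other defects of that loss. Each strain had 2 replicates of IP and Total, 40 libraries in all, from cells held in G1 with α-factor at 23 °C and released into 200 mM hydroxyurea, which stalls forks soon after they start, with 400 μg/mL BrdU for 60 min. For dbf4∆C the study's text gives a longer time in hydroxyurea than the labels do. If the text is right, the truncation and the time cannot be told apart in comparisons of dbf4∆C with the other strains. The BrdU-incorporation cassette stood at LEU2 in WT and in the 4 strains with a dbf4-Zn* allele and at URA3 in the other strains, so that the cassette's place and the genotype cannot be told apart in comparisons between those groups. Binding of Dbf4 was measured by ChIP-seq in G1-arrested cells with 2 libraries of FLAG-Dbf4 and 2 of FLAG-dbf4-aaHH, the Zn*1 form, both tagged at the N-terminus; the strain numbers that the labels give for the tagged alleles are swapped relative to the study's text, and groups follow the genotype in the labels.

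Centromeres are bound by the kinetochore, the protein machine that attaches chromosomes to the spindle, and Ctf19 is a subunit of the inner kinetochore. Origins close to centromeres depend on Ctf19 to fire early in S phase. The Ctf19 complex is thought to bring Dbf4 to the kinetochore and so to stimulate the nearest origins. Dbf4 is the regulatory subunit of the Cdc7 kinase (DDK), which is limiting for origin firing, and its C-terminus ends in a Zn finger. Fkh1 and Fkh2 are forkhead transcription factors that advance many early origins elsewhere in the genome, and these origins compete with the CEN-proximal ones for the same kinase.

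The sums of all bins, used as library sizes, were 281531 to 13959837 counts in IP and 435781 to 33840380 in Total, and the fewest counts in any arm of any library were 79. Replicates of a strain varied 1.38 to 1.90 times as much as counting alone allows in IP and 1.24 to 2.20 times in Total. The deleted genes checked part of the labels, in the Total libraries only. They cannot tell WT and the dbf4-Zn* alleles apart, or fkh1∆ from fkh1∆ fkh2-dsm. CTF19 carried 0% of the genome-wide mean in the 4 Total libraries that lack it and 63.0% to 95.7% in the other 16, FKH1 0% to 5.43% against 71.9% to 99.2%, and the end of DBF4 0% in dbf4∆C against 27.7% to 147%. The labels do not say that replicates came from separate cultures, so p-values measure the spread between these samples, which may be technical. Signals are given as multiples of a library's genome-wide mean and are therefore shares of the DNA recovered. Where the size of the Total library was used in place of that of the IP library, which leaves the number of IP reads per Total read free to vary, edgeR called no arm, centromere tile or peak in any IP comparison below (unadjusted p under 0.05 for at most 10 members of a set), so all IP calls below concern shares of the recovered DNA and not amounts.

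The cores are gene-rich outside the centromere itself. They overlap 192 genes, 6 of them tRNA genes, and the gaps between the genes that flank the centromeres measure 630 to 2541 bp. TFC3 and NUP60 flank CEN1, ECM15 and NTH2 flank CEN2, and PRE3 and AVT1 flank CEN10. MET14 and VPS1 flank CEN11, DNM1 and YLR001C flank CEN12, YPT7 and CDC5 flank CEN13, and DOM34 and CIT1 flank CEN14. IP peaks, taken here as likely places where forks start, were found in the average of the 20 scaled IP profiles of all strains. A bin counted as a peak if it reached 2 times the genome-wide mean and no bin up to 5 kb away was higher. WT and the mutants tested all entered this average, so a peak could pass through the strains where it was high. Counts of peaks called are therefore not free of this choice. They are set beside the share over all peaks of the genome, which were chosen in the same way. Of 295 peaks in the genome, 14 lay in 12 of the cores, 1025 to 8225 bp from the centromere. The cores of CEN4, CEN7, CEN8 and CEN15 had none, and those of CEN1 and CEN16 had 2 each. The CEN6 right peak was weak throughout, with a mean of 1.67 in WT and at most 2.43 (dbf4∆C) over its 500-bp window. Whether forks start there was not tested. By the gene table of the R64 assembly (the files name no build), 9 of these peaks were centred in a gene and 5 between genes. The CEN2 left peak lay at chr2:236751-237250 between the histone gene HTB2 and ECM15, and the CEN12 right peak at chr12:156401-156900 between NOC3 and CMS1. The CEN14 right peak lay at chr14:635251-635750 between RPC34 and SWM2, the CEN10 right peak at chr10:442851-443350 in SAG1, and the CEN11 right peak at chr11:447601-448100 in ECM9. Just inside the limit of 10 kb, the outermost core peak, at CEN1 right 8225 bp away, had a mean WT signal of 17.8. Just outside it, the nearest peaks, at CEN15 right 10475 bp away and CEN8 right 10675 bp away, had mean WT signals of 16.1 and 17.4, so the limit cuts through a group of strong origins.

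In WT the cores were rich in newly made DNA, on 1 side of most centromeres. Their IP signal was 2.92 and 3.02 times the genome-wide mean (2.97 ± 0.0724, SD, n = 2) and they held 7.88% of all IP counts. The zone from 10 to 25 kb was at 2.58. Averaged over the 16 centromeres, the WT profile had a crest of 4.07 on the left and of 4.80 on the right, with a low of 1.36 at the outer left edge. Of the 1190 tiles of 10 kb into which the genome was cut outward from the centromeres, the 119 highest included 16 of the 32 arms in WT replicate 1 and 17 in replicate 2.

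**Figure D1:**
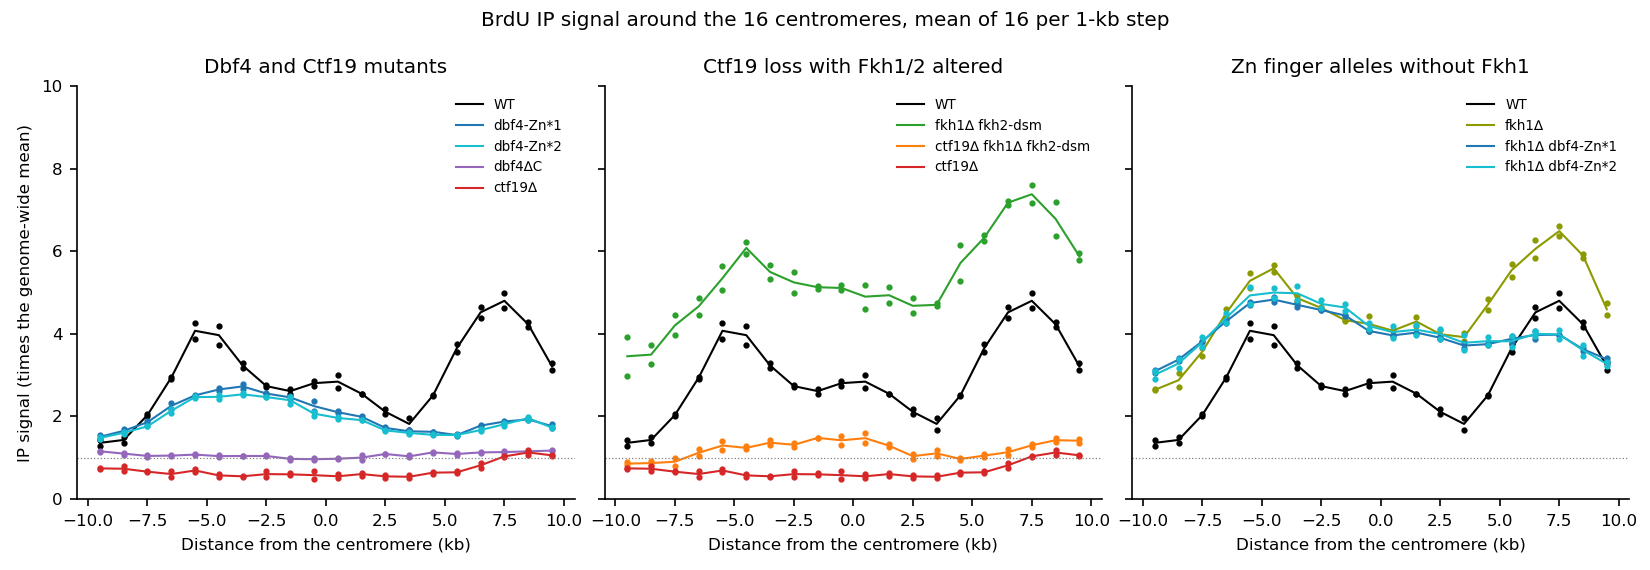
IP signal (times the genome-wide mean) against distance from the centromere in kb, averaged over the 16 centromeres in steps of 1 kb, for WT and the groups of strains named in the legends; lines are the mean of 2 libraries and points the libraries. WT has a crest on each side, ctf19∆ lies between 0.540 and 1.13, dbf4∆C between 0.964 and 1.17, and fkh1∆ fkh2-dsm between 3.46 and 7.38.

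The arms of WT ranged over more than an order of magnitude. The lowest were CEN11 left at 0.255 and 0.261, CEN8 left at 0.264 and 0.282 and CEN15 left at 0.236 and 0.313. The highest were CEN11 right at 7.44 and 7.71, CEN3 left at 6.89 and 7.17 and CEN13 left at 6.62 and 7.18. The 3 lowest overlapped one another, as did CEN3 left and CEN13 left, while both CEN11 right values lay above those of the other arms. In all, 19 arms stood at 2 or more and 9 below 1. The same centromere could hold an arm of each kind: CEN11 had the lowest and the highest arm of all, 29.4-fold apart, and the median ratio between the arms of a centromere was 3.70. The 1-kb tile on the centromere itself was often low. It stood below 1 at 9 of 16 centromeres in WT, with a median of 0.667, and at a median of 9.35% of the highest tile of its core. The highest was CEN2, where the tile had 13.9 and 16.5, with a peak 1275 bp to its left, so that the CEN2 centromere lay within an origin's crest. The next highest tiles were CEN3 at 6.57 and 7.79, CEN13 at 7.24 and 6.95 and CEN9 at 4.23 and 5.79.

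**Figure D2:**
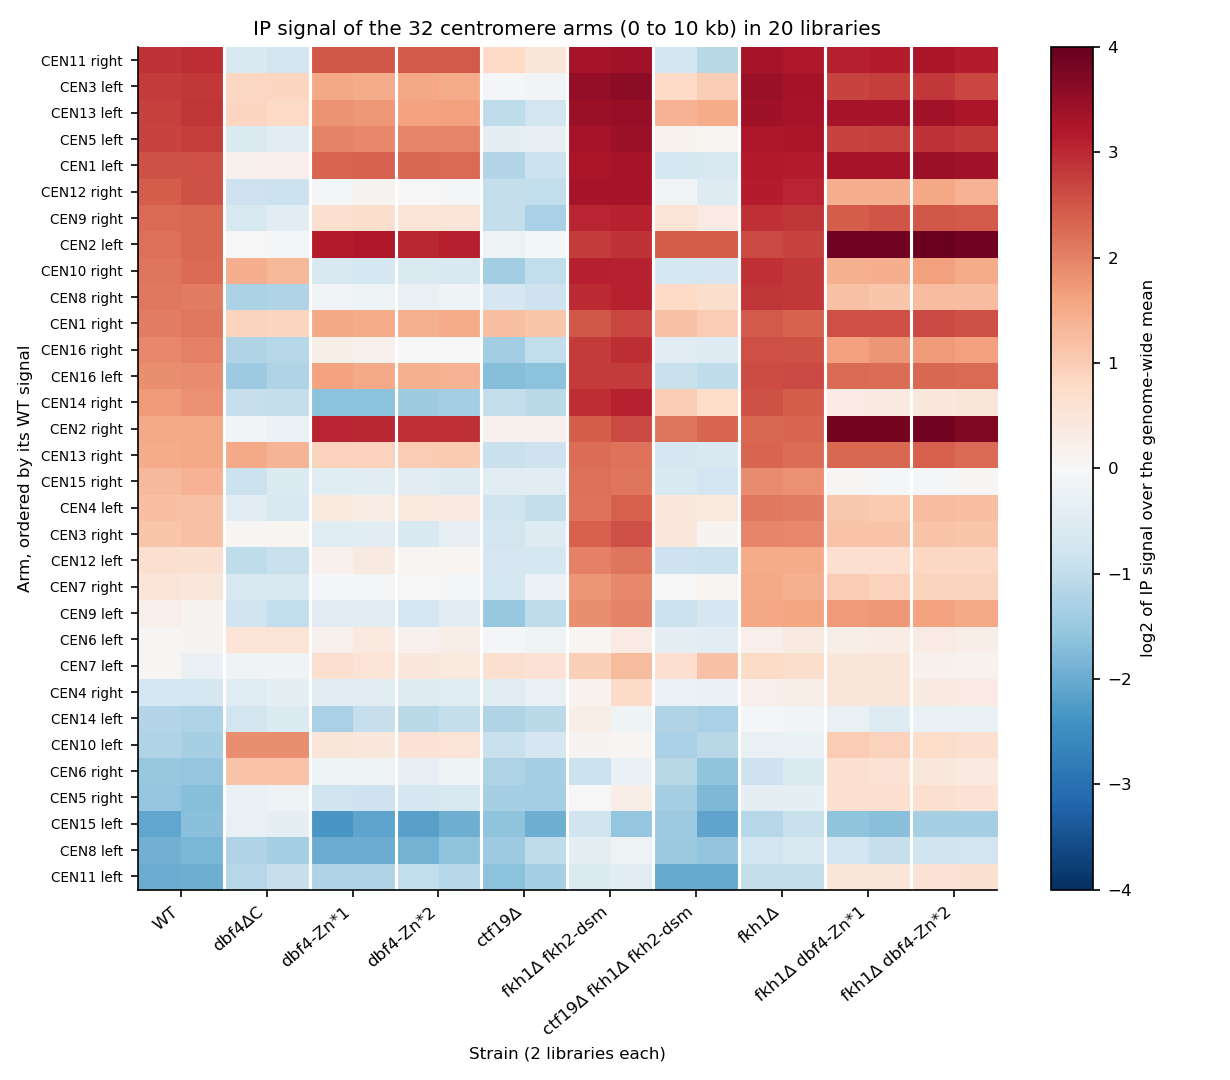
Heat map of the IP signal (log2 of the multiple of the genome-wide mean, colour scale -4 to 4) of the 32 arms (rows, ordered by WT) in the 20 IP libraries (columns, 2 for each of the 10 strains). The ctf19∆ columns are pale or blue in nearly every row, the fkh1∆ fkh2-dsm and fkh1∆ columns are darker red than WT, and the CEN2 rows are the darkest in the dbf4-Zn* strains.

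Loss of Ctf19 asks how far the cores depend on the kinetochore. The ctf19∆ cores fell to 0.696 ± 0.0101 (SD, n = 2), below the genome-wide mean, while the zone from 10 to 25 kb stood at 1.56. Of the 32 arms, 22 were lower and 5 higher than in WT at an adjusted p under 0.05 (edgeR's quasi-likelihood test, Benjamini-Hochberg over all 1190 tiles), against 9.16% lower and 66.7% higher among all tiles. The median change was -1.80 on the log2 scale in the arms and 0.53 over all tiles. The largest falls were at CEN13 left, CEN1 left and CEN16 left. CEN13 left went from 6.62 and 7.18 in WT to 0.496 and 0.585 in ctf19∆ (log2 -3.71 ± 0.08, SE, adjusted p = 2.6e-36). CEN1 left went from 5.81 and 5.93 to 0.442 and 0.556 (-3.62 ± 0.08), and CEN16 left from 3.62 and 3.69 to 0.305 and 0.320 (-3.56 ± 0.09). The WT and ctf19∆ libraries did not overlap in any of these 3 arms, all of which came down below the genome-wide mean.

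The arm of ctf19∆ that stayed highest was CEN1 right, at 2.31 and 2.16 against 4.16 and 4.28 in WT (-0.91 ± 0.07), and it was the 1 arm that stood at 2 or more. Its peak, in SEN34 (a subunit of the tRNA splicing endonuclease) 8225 bp from the centromere, kept 37.3% of its WT signal. The median core peak kept 5.22%. The 5 arms called higher were CEN7 left, CEN8 left, CEN4 right, CEN10 left and CEN11 left, all low in WT, with changes of 0.70, 0.62, 0.33, 0.46 and 0.46. Scaled by TMM factors, which move the all-tile median of this comparison by -0.51, 24 arms were lower and none higher, and the values of CEN10 left, CEN4 right and CEN11 left turned negative, to -0.04, -0.18 and -0.05. CEN14 left (0.04 ± 0.14), CEN15 left (0.15 ± 0.20) and CEN6 left (-0.17 ± 0.10) changed least and were not called, and CEN14 left (-0.47) and CEN6 left (-0.67) were called lower with TMM. All 14 core peaks were lower in ctf19∆ and none was higher, against 40.3% lower and 3.39% higher among the 295 peaks. The CEN12 right peak went from 15.0 and 17.1 to 0.272 and 0.590 (-5.56 ± 0.32, adjusted p = 2.2e-16) and the CEN2 left peak from 16.8 and 19.9 to 2.32 and 2.46 (-2.95 ± 0.16). On the centromeres themselves 7 of 16 tiles were lower and 1 was higher (4.74% and 21.7% of all 1-kb tiles), with the largest fall at CEN13 (-5.22 ± 0.22) and the rise at CEN7, which was not called with TMM, where 9 tiles were lower and none was higher.

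The Zn finger alleles lowered the same region less evenly. The cores stood at 2.02 in both replicates of dbf4-Zn*1 and at 1.94 ± 0.0179 (SD, n = 2) in dbf4-Zn*2, the strains called Zn*1 and Zn*2 from here on. In Zn*1, 20 arms were lower and 8 higher than in WT (33.4% and 16.4% of all tiles), and in Zn*2, 20 were lower and 7 higher (24.5% and 17.4%). The median changes were -0.49 and -0.50 in the arms and -0.28 and -0.14 over all tiles. With TMM, which moves the all-tile median by 0.25 and 0.14, the splits were 14 lower and 10 higher in Zn*1, and 19 and 8 in Zn*2. The largest falls were on the right of CEN14, CEN10 and CEN12. CEN14 right went from 3.25 and 3.58 in WT to 0.323 and 0.323 in Zn*1 and to 0.374 and 0.391 in Zn*2 (-3.40 ± 0.09 and -3.16 ± 0.09, adjusted p = 1.1e-32 and 9.1e-32, edgeR). CEN10 right went from 4.44 and 4.80 to 0.650 and 0.616 and to 0.673 and 0.661 (-2.86 ± 0.08 and -2.79 ± 0.08). CEN12 right went from 5.38 and 5.81 to 0.960 and 1.08 and to 1.02 and 0.962 (-2.46 ± 0.08 and -2.49 ± 0.08). The 4 mutant libraries lay far below the 2 WT libraries in each of these arms, and the alleles gave nearly the same values.

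Other arms kept most of their signal or gained. CEN11 right, the highest WT arm, stood at 5.62 and 5.59 in Zn*1 and at 5.46 and 5.47 in Zn*2, a small fall over 10 kb (-0.43 ± 0.07 and -0.47 ± 0.07), which was not called in Zn*1 with TMM (-0.18), and its 5 kb next to the centromere were higher than in WT (0.42 and 0.40). CEN2 rose on both sides, and it was the only centromere with both arms higher in either allele. CEN2 right went from 2.85 and 2.84 in WT to 8.22 and 8.16 in Zn*1 and to 7.65 and 7.65 in Zn*2 (1.53 ± 0.07 and 1.43 ± 0.07, adjusted p = 3.6e-24 and 4.5e-23). CEN2 left went from 4.63 and 4.93 to 8.76 and 9.24 and to 8.12 and 8.66 (0.91 ± 0.06 and 0.81 ± 0.06), the highest arm of both strains. CEN10 left, low in WT at 0.431 and 0.402, rose to 1.41 and 1.33 and to 1.49 and 1.47 (1.71 ± 0.09 and 1.82 ± 0.09), so that the larger signal moved to the other side of CEN10. CEN6 right rose as well, from 0.352 and 0.345 to 0.861 and 0.894 and to 0.800 and 0.888 (1.33 ± 0.13 and 1.27 ± 0.13), but stayed below the genome-wide mean. CEN8 left, CEN14 left and CEN6 left changed least, by -0.10 to 0.21 in both alleles, and were not called.

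**Figure D3:**
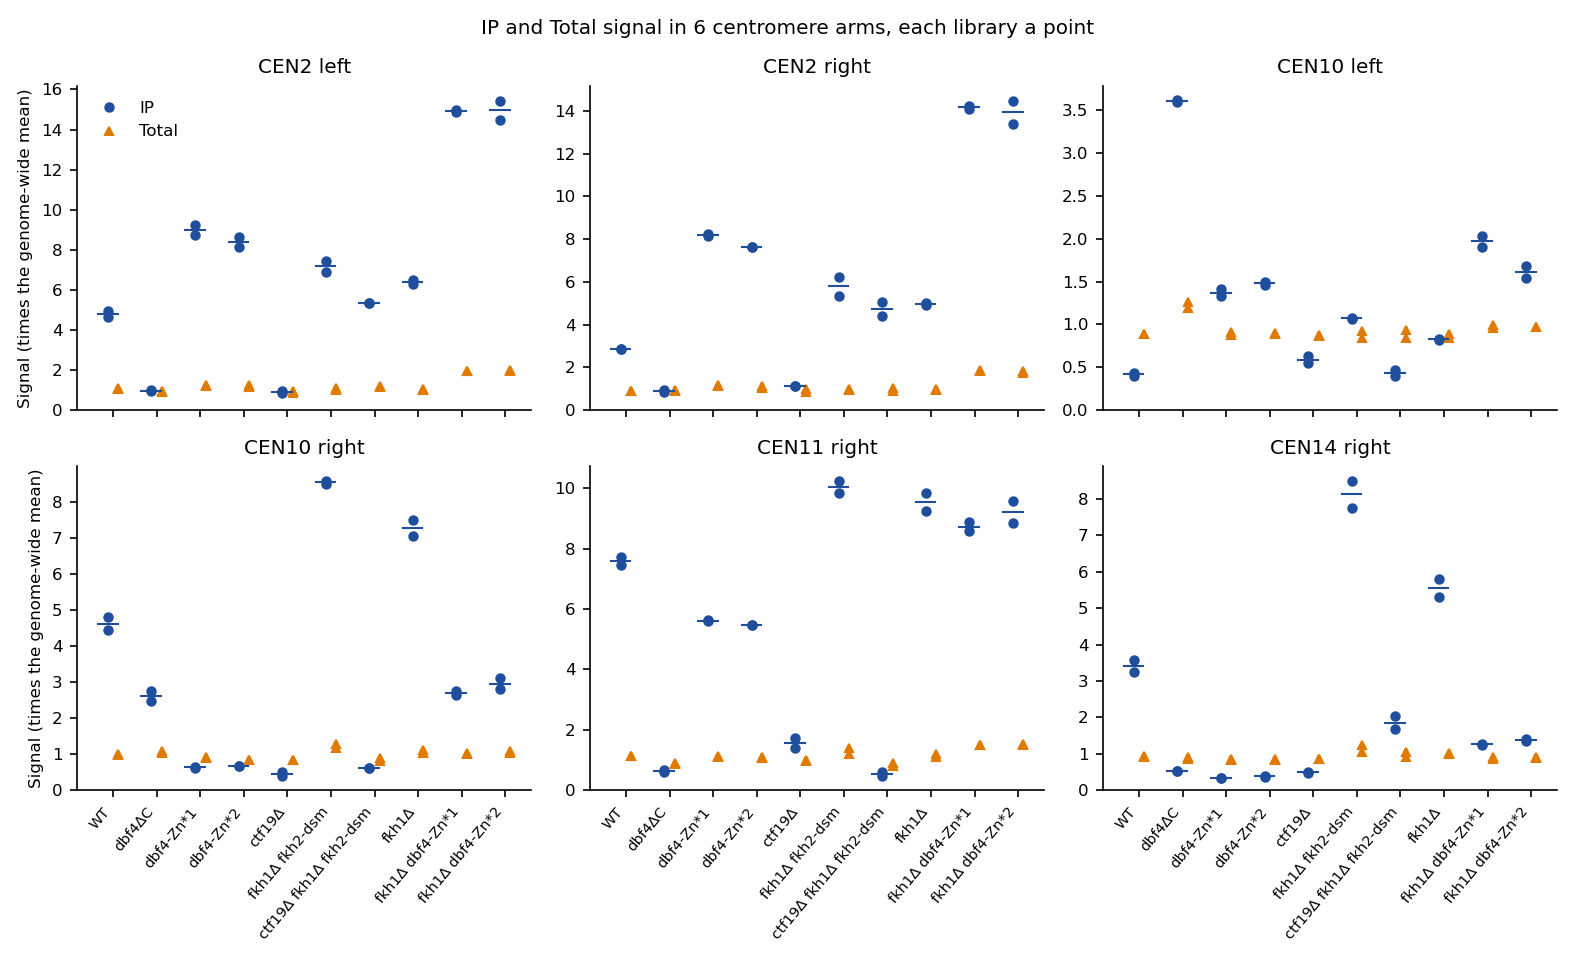
IP signal (circles, bar at the mean) and Total signal (triangles) of 6 arms in each library of the 10 strains, as multiples of the genome-wide mean; each panel has its own axis from 0. CEN2 left and right reach 13.4 to 15.4 in the IP of fkh1∆ dbf4-Zn*1 and fkh1∆ dbf4-Zn*2, CEN10 left is highest in dbf4∆C at 3.60 and 3.62, and CEN14 right is lowest in dbf4-Zn*1.

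The core peaks differed in how much they kept. Of the 14 peaks, 12 were lower and none higher in each allele (48.8% lower and 3.05% higher of all peaks in Zn*1, 50.2% and 3.39% in Zn*2), and the median peak kept 34.4% of its WT signal in Zn*1 and 32.6% in Zn*2. In Zn*1 the CEN14 right peak kept 2.64%, CEN12 right 5.91%, CEN16 right 5.95% and CEN10 right 8.59%. The CEN16 left peak, 3025 bp from the same centromere as the CEN16 right peak, kept 44.4%, CEN11 right 53.1% and CEN1 left 57.4%. Peaks of the same centromere could thus differ sharply, and the 4 most reduced peaks all lay on the right, 5775 to 7525 bp away. The CEN2 left peak had 16.0 and 19.1 in Zn*1 and 15.1 and 17.9 in Zn*2 against 16.8 and 19.9 in WT and was not called (-0.06 ± 0.13 and -0.15 ± 0.13), but with TMM it was called higher (0.52 and 0.39). The CEN6 right peak, the weakest in WT at 1.61 and 1.74, was not called either (-0.05 ± 0.29 and -0.10 ± 0.29), and DESeq2 called it higher in Zn*1 (0.66). On the centromeres, 3 of 16 tiles were lower in both alleles (CEN3, CEN9 and CEN13), and 4 were higher in Zn*1 and 3 in Zn*2, against 10.6% lower and 12.4% higher, and 9.49% and 12.6%, of all 1-kb tiles. The tiles of CEN1, CEN5 and CEN11 rose in both alleles, CEN11 from 0.416 and 0.236 to 1.16 and 1.08 in Zn*1 (1.65 ± 0.31) and CEN1 from 1.71 and 1.34 to 2.99 and 3.16 (0.98 ± 0.18). Without WT IP replicate 1, and likewise without WT IP replicate 2, the split in Zn*1 was 3 lower and 2 higher. The dip of the profile at the centromere was shallower in these strains: the centromere tile stood at a median of 28.9% and 34.0% of the highest tile of its core, where WT had 9.35%. This was not particular to them. The same median was above that of WT in every other mutant, from 18.1% in fkh1∆ to 54.2% in dbf4∆C, with 28.6% in ctf19∆.

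The cores were flat in dbf4∆C, whose time in hydroxyurea may also have differed from that of WT. In dbf4∆C the mean profile stayed between 0.964 and 1.17 over all distances, and the cores were at 1.07 ± 0.00812 (SD, n = 2). Of the arms, 21 were lower and 9 higher than in WT, against 17.4% and 72.8% of all tiles, and the median change was -1.38 in the arms and 0.75 over all tiles. With TMM, which moves the all-tile median by -0.71, 24 were lower and 4 higher. CEN11 right went from 7.44 and 7.71 in WT to 0.654 and 0.607 (-3.59 ± 0.08, adjusted p = 1.7e-35, edgeR) and CEN16 left from 3.62 and 3.69 to 0.365 and 0.436 (-3.19 ± 0.08). The median ratio between the arms of a centromere was 1.28, the smallest of the 10 strains. The left of CEN10 rose from 0.431 and 0.402 to 3.62 and 3.60 (3.11 ± 0.09, adjusted p = 3.8e-31), the highest arm of dbf4∆C, and CEN10 right was at 2.76 and 2.48 (-0.82 ± 0.08 over 10 kb, 0.56 for the 5 kb next to the centromere). CEN6 right rose from 0.352 and 0.345 to 2.22 and 2.20 (2.66 ± 0.13). Of the centromere tiles, CEN10 (2.46 ± 0.34), CEN6 (2.11 ± 0.45) and CEN7 (1.31 ± 0.34) were higher and 6 were lower (47.8% higher and 10.7% lower of all 1-kb tiles). The arms of CEN7 did not rise with its tile: CEN7 left changed by -0.05 ± 0.11 and CEN7 right was lower (-1.14 ± 0.09). Of the 14 peaks 13 were lower and none higher (70.5% and 7.8% of all peaks), and the median peak kept 5.60%. The exception was the CEN6 right peak, with 2.76 and 2.09 in dbf4∆C (0.55 ± 0.29, not called; called higher with TMM, where 13 peaks were lower and 1 higher).

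**Figure D4:**
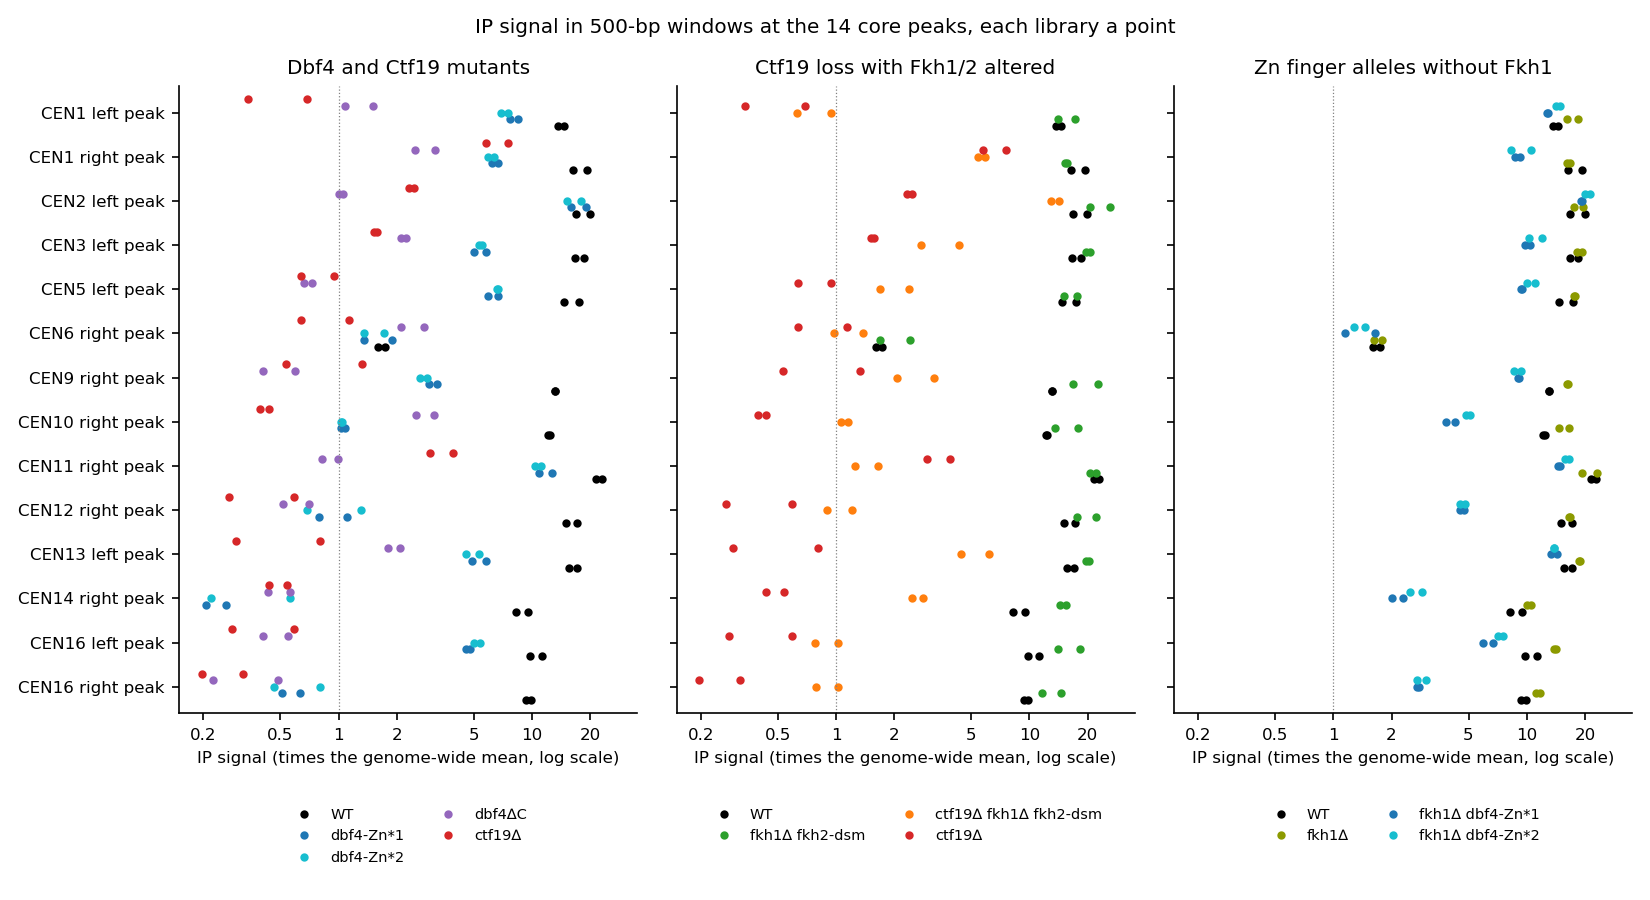
IP signal of the 500-bp windows at the 14 core peaks (rows) as multiples of the genome-wide mean, log scale, each library a point, in 3 groups of strains with WT in each. In ctf19∆ all peaks but CEN1 right, CEN2 left, CEN3 left and CEN11 right lie near or below 1, the dbf4-Zn* alleles spread from about 0.2 at CEN14 right to the WT level at CEN2 left, and fkh1∆ fkh2-dsm lies near or above WT.

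The finger alleles and ctf19∆ were also compared directly. In Zn*1 24 arms were higher and 3 lower than in ctf19∆ (12.2% and 80.3% of all tiles), and in Zn*2 24 and 2 (12.4% and 76.2%), with median changes of 0.91 and 0.77 in the arms and -0.80 and -0.67 over all tiles. The largest differences were at CEN1 left (3.41 ± 0.08 and 3.33 ± 0.08), CEN2 left (3.33 ± 0.07 and 3.23 ± 0.07) and CEN16 left (3.27 ± 0.09 and 3.10 ± 0.09). CEN14 right was the arm with the largest WT signal among those lower in the finger alleles (-0.63 ± 0.10 and -0.39 ± 0.09), a direction that turned with TMM (0.14 and 0.27), where 29 arms were higher and none lower in both alleles. At CEN14 right the libraries of the finger alleles had 0.323 to 0.391, and those of ctf19∆ 0.513 and 0.472.

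Changing the forkhead proteins moved the cores the other way. The core signal was 4.60 ± 0.114 in fkh1∆ and 5.34 ± 0.218 in fkh1∆ fkh2-dsm (SD, n = 2), and the zone from 10 to 25 kb was at 3.20 and 3.45. In each of the strains 31 arms were higher and none lower than in WT, against 24.3% higher and 12.4% lower of all tiles in fkh1∆ and 48.7% and 13.4% in fkh1∆ fkh2-dsm. With TMM 28 and 27 were higher and none lower. The arm not called in either was CEN6 left (0.20 ± 0.10 and 0.12 ± 0.11). The largest rise was at CEN9 left, from 1.16 and 1.08 in WT to 2.93 and 2.98 in fkh1∆ and 3.65 and 3.95 in fkh1∆ fkh2-dsm (1.39 ± 0.10 and 1.75 ± 0.10, adjusted p = 1.1e-16 and 5.7e-20, edgeR). The highest arm in both was CEN3 left, which went from 6.89 and 7.17 to 11.0 and 9.96 and to 11.5 and 11.8 (0.58 ± 0.07 and 0.73 ± 0.07). CEN11 right, the highest in WT, gained less (0.34 ± 0.07 and 0.40 ± 0.07). High and low arms rose together, 22 arms in fkh1∆ and 23 in fkh1∆ fkh2-dsm stood at 2 or more, and the median ratio between the arms of a centromere, 2.89 and 2.35, was below the 3.70 of WT.

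Fewer changes were called at the peaks themselves. Of the 14 peaks, none was called in fkh1∆ (edgeR; 2 at an unadjusted p under 0.05) and 4 were higher in fkh1∆ fkh2-dsm, with none lower, against 40.3% lower and 3.73% higher, and 46.8% and 13.2%, of all peaks. The 4 were at CEN2 left, CEN9 right, CEN14 right and CEN16 left. The CEN14 right peak had 8.23 and 9.49 in WT and 15.5 and 14.3 in fkh1∆ fkh2-dsm (0.76 ± 0.24, adjusted p = 0.0074). The windows of all 295 peaks had median log2 changes of -0.36 and -0.58 in these strains, and with TMM, which moves them towards 0, 11 of the core peaks were higher in fkh1∆ and 14 in fkh1∆ fkh2-dsm (DESeq2 13 and 14). Without WT IP replicate 1, no core peak was called in fkh1∆ fkh2-dsm. At the centromeres, 9 of 16 tiles rose in fkh1∆ and 12 in fkh1∆ fkh2-dsm, and none fell (9.33% higher and 4.73% lower, and 20.3% and 7.59%, of all 1-kb tiles). CEN11 went from 0.416 and 0.236 in WT to 3.19 and 1.24 in fkh1∆ fkh2-dsm (2.69 ± 0.34) and CEN16 from 2.18 and 2.26 to 7.09 and 8.15 (1.78 ± 0.19). Without WT IP replicate 1 the count in fkh1∆ was 5. The CEN2 tile, already at 13.9 and 16.5 in WT, had 14.1 and 15.8 and 14.7 and 16.3 and was not called.

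Without Ctf19 the cores of the forkhead mutant fell. Those of ctf19∆ fkh1∆ fkh2-dsm stood at 1.20 ± 0.00569 (SD, n = 2), and 31 arms were lower and none higher than in fkh1∆ fkh2-dsm (8.4% lower and 35.0% higher of all tiles), with a median change of -2.08. CEN7 left was the arm not called (-0.17 ± 0.11). The largest fall was at CEN11 right, from 9.82 and 10.2 to 0.595 and 0.466 (-4.21 ± 0.09, adjusted p = 2.9e-36, edgeR), and next came CEN1 left (-3.96 ± 0.08). CEN2 fell least of the arms called: its left arm had 6.91 and 7.46 in fkh1∆ fkh2-dsm and 5.36 and 5.35 in the triple mutant (-0.42 ± 0.07), and its right arm 5.34 and 6.23 and 4.40 and 5.07 (-0.29 ± 0.07). Against WT, 21 arms of the triple mutant were lower and 4 higher (13.5% and 60.9% of all tiles). Both arms of CEN2 were among the higher ones (0.17 ± 0.06 and 0.73 ± 0.07), but with TMM the left was called lower (-0.34) and the right was not called (0.23), and 26 arms were lower and 1 higher. In ctf19∆ alone, by contrast, the CEN2 arms stood at 0.862 and 0.947 on the left and 1.14 and 1.12 on the right. The CEN2 left peak of the triple mutant had 13.0 and 14.2, against 2.32 and 2.46 in ctf19∆ and 16.8 and 19.9 in WT (-0.43 ± 0.14 against WT, with a sign that turned to 0.05 with TMM). Of the other core peaks, 12 were lower and none higher, and the CEN6 right peak was not called (45.8% lower and 11.5% higher of all peaks). On the centromeres, 7 tiles were lower and none higher (7.89% and 27.4% of all 1-kb tiles), with the CEN2 tile at 12.7 and 11.6.

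The change on loss of Ctf19 was tested as an interaction between strains with and without altered Fkh1 and Fkh2. It differed at 26 arms. The log2 change was lower at 20 of them and higher at 6 when the forkhead proteins were altered, against 24.6% and 10.1% of all tiles. With TMM the split was 11 and 8. A lower log2 change was not always a larger fall. The 20 include CEN4 right, CEN7 left, CEN8 left, CEN10 left and CEN11 left, which were called higher in ctf19∆ than in WT without TMM. The arms that fell by a smaller fold were CEN2 left (2.00 ± 0.10, adjusted p = 1.1e-21, edgeR), CEN13 left (1.68 ± 0.10), CEN2 right (1.04 ± 0.10) and CEN14 right (0.65 ± 0.12, but -0.89 for its 5 kb next to the centromere), together with CEN8 right and CEN9 right. CEN13 left had 2.61 and 2.77 in the triple mutant against 0.496 and 0.585 in ctf19∆. CEN11 right went the other way (-1.97 ± 0.12), with 0.595 and 0.466 in the triple mutant against 1.74 and 1.40 in ctf19∆.

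The finger alleles without Fkh1 kept high cores, with some arms as high as in fkh1∆, others lower and CEN2 higher. The core signal was 4.01 ± 0.0243 in fkh1∆ dbf4-Zn*1 and 4.07 ± 0.165 in fkh1∆ dbf4-Zn*2 (SD, n = 2). Against fkh1∆, 17 arms were lower and 7 higher in the former (29.2% and 14.9% of all tiles) and 15 and 8 in the latter (23.3% and 13.9%), with median changes of -0.28 and -0.25. CEN1 left was high in each, at 9.10 and 8.82 in fkh1∆, 9.73 and 9.82 in fkh1∆ dbf4-Zn*1 and 10.8 and 10.2 in fkh1∆ dbf4-Zn*2, and so was CEN11 right, at 9.84 and 9.26, 8.56 and 8.89, and 9.57 and 8.84. CEN14 right went from 5.81 and 5.31 in fkh1∆ to 1.24 and 1.27 and to 1.35 and 1.41 (-2.15 ± 0.08 and -2.02 ± 0.08, adjusted p = 3.9e-27 and 4e-26, edgeR), and CEN15 right from 3.69 and 3.55 to 1.03 and 0.952 and to 0.940 and 1.04 (-1.87 ± 0.09 in both). CEN2 right went the opposite way, from 4.92 and 5.01 to 14.1 and 14.2 and to 14.5 and 13.4 (1.51 ± 0.07 and 1.49 ± 0.07), and CEN2 left from 6.29 and 6.51 to 14.9 and 15.0 and to 15.4 and 14.5 (1.22 ± 0.06 and 1.23 ± 0.06). These were the highest arms of any strain. CEN11 left (1.43 ± 0.12 and 1.56 ± 0.12) and CEN10 left (1.26 ± 0.09 and 0.97 ± 0.09), both low in WT, rose too. Against WT 6 arms were lower in both strains and 19 and 20 higher (21.7% lower and 19.9% higher of all tiles for fkh1∆ dbf4-Zn*1, 19.2% and 22.9% for fkh1∆ dbf4-Zn*2). The 6 lower arms were the right arms of CEN8, CEN10, CEN12, CEN14, CEN15 and CEN16 in both. For the 5 kb next to the centromere CEN10 right turned to 0.06 and 0.13 and was not called.

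The change made by each finger allele was tested as an interaction with loss of Fkh1. In Zn*1 it differed at 20 arms, 17 with a smaller fall or larger rise without Fkh1 and 3 the other way (13.5% and 13.4% of all tiles), and in Zn*2 at 19, 17 and 2 (12.0% and 13.9%). At CEN14 right the difference was 1.25 ± 0.12 in Zn*1 and 1.15 ± 0.11 in Zn*2 (adjusted p = 2.1e-12 and 1.3e-11, edgeR), but for its 5 kb next to the centromere it was 0.07 and -0.01 and was not called. With 5-kb tiles the counts were 10 and 12. At CEN13 left it was 0.96 ± 0.09 and 1.14 ± 0.09, where the finger alleles alone had 3.05 to 3.50 and those without Fkh1 9.65 to 10.4. CEN7 left (-0.95 ± 0.15 and -1.12 ± 0.15) and CEN10 left (-0.45 ± 0.13 and -0.85 ± 0.13) went the other way. The core peaks of fkh1∆ dbf4-Zn*1 and fkh1∆ dbf4-Zn*2 kept a median of 59.3% and 67.1% of WT, where the alleles alone kept 34.4% and 32.6%, a contrast that was not tested over the peaks. Against WT 10 of the 14 peaks were lower in each and none higher (70.5% lower and 6.1% higher, and 66.1% and 5.76%, of all peaks). That direction depends on the scale: with TMM 4 were lower and 6 higher in fkh1∆ dbf4-Zn*1 and 3 and 9 in fkh1∆ dbf4-Zn*2. At the centromeres 7 tiles were higher in fkh1∆ dbf4-Zn*1 and 9 in fkh1∆ dbf4-Zn*2, and 1 lower, CEN3, in each (15.4% higher in both, and 10.2% and 9.45% lower, of all 1-kb tiles).

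CEN2 showed in the unselected DNA too. Its left arm had a Total signal of 1.03 and 1.09 in WT and 0.992 and 1.07 in fkh1∆, and 1.95 and 1.93 in fkh1∆ dbf4-Zn*1 and 2.00 and 1.97 in fkh1∆ dbf4-Zn*2 (0.87 ± 0.05 and 0.90 ± 0.05 against WT, adjusted p = 7e-15 and 2e-15, edgeR). Its right arm had 0.894 and 0.899 in WT, 1.86 and 1.82 in fkh1∆ dbf4-Zn*1 and 1.84 and 1.74 in fkh1∆ dbf4-Zn*2 (1.03 ± 0.06 and 1.00 ± 0.06). The Total signal around CEN2 was thus close to 2 times that of WT in all 4 libraries. In Zn*1 and Zn*2 the right arm rose less, to 1.15 and 1.17 and to 1.05 and 1.15 (0.37 ± 0.06 and 0.30 ± 0.06). The left of CEN10 had 1.26 and 1.20 in the Total of dbf4∆C against 0.891 and 0.895 in WT (0.46 ± 0.05).

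CEN2 was not the only centromere with a rise in Total signal. CEN1 left had 1.04 and 1.05 in WT, 1.56 and 1.54 in fkh1∆ dbf4-Zn*1 and 1.62 and 1.63 in fkh1∆ dbf4-Zn*2. The core means ran from 0.906 in ctf19∆ to 1.14 in fkh1∆ dbf4-Zn*2. In fkh1∆ dbf4-Zn*1 12 arms were higher and none lower than in WT, and in fkh1∆ dbf4-Zn*2 13 (6.64% higher and 4.37% lower, and 6.72% and 4.79%, of all tiles). In ctf19∆ 7 arms were lower and none higher (1.6% and 4.12%) and in the triple mutant 8 and none (2.69% and 4.37%), but these counts were 2 and 3 without WT Total replicate 2, and that of the triple mutant was 5 without WT Total replicate 1. In dbf4∆C 10 were lower and 3 higher (5.88% and 17.6%), of which 5 in all were left without WT Total replicate 2 and 8 without dbf4∆C Total replicate 2. In Zn*1 4 were lower and 2 higher (1.18% and 4.54%) and in Zn*2 7 and 2 (1.6% and 3.45%), and leaving out any of the WT or mutant Total libraries left 2 to 4 arms in the former and 4 in the latter. In fkh1∆ fkh2-dsm 1 was lower and 6 higher (2.86% and 0.924%), and 1 arm was called without WT Total replicate 1 and 3 without WT Total replicate 2. In fkh1∆ none was called (0.756% and 0.336% of all tiles; 6 arms at an unadjusted p under 0.05, none with TMM or DESeq2). With the Total signal of the same tile as an offset, which asks for BrdU per copy of the sequence, the rise of CEN11 right in the strains with a finger allele and no Fkh1 (0.20 and 0.28 against WT, not called with TMM) turned to -0.22 and -0.17. The Total signal of this arm was 1.12 and 1.12 in WT, 1.49 and 1.49 in fkh1∆ dbf4-Zn*1 and 1.51 and 1.52 in fkh1∆ dbf4-Zn*2.

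The falls on loss of Ctf19 were concentrated near the centromere, and those in Zn*1 and Zn*2 less so, with library totals as the scale. These shares depend on that scale and were not repeated with TMM. The share of lower tiles was 68.75% within 10 kb and 5.05% beyond 50 kb in ctf19∆, 62.5% and 31.5% in Zn*1, and 62.5% and 21.8% in Zn*2. In ctf19∆, 22 of 32 tiles within 10 kb were lower, 19 of 32 from 10 to 20 kb, 10 of 32 from 20 to 30 kb, 6 of 64 from 30 to 50 kb and 52 of 1030 beyond, with medians of -1.80, -0.34, 0.21, 0.60 and 0.56. In Zn*1 the same counts were 20, 18, 15, 21 and 324, with medians of -0.49, -0.60, -0.34, -0.15 and -0.28. In Zn*2 they were 20, 17, 15, 14 and 225, with medians of -0.50, -0.53, -0.18, 0.04 and -0.14. The step beyond 10 kb seen in the median of ctf19∆ was not seen in either allele. For loss of Ctf19 in the forkhead mutant the counts were 31, 27, 22, 8 and 12. Peaks just beyond 10 kb varied as well: the peak at CEN8 right, 10675 bp out, had a mean of 17.4 in WT, 1.81 in Zn*1, 2.00 in ctf19∆ and 6.55 in the triple mutant, while that at CEN7 left, 12025 bp out, had 16.9, 6.58, 6.28 and 11.6.

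The ChIP signal of Dbf4 in G1 was higher at the centromeres than in the cores around them. The ChIP signal of the 500-bp window on a centromere, as a multiple of the mean outside the rDNA, averaged 3.17 and 2.65 over the 16 centromeres in the FLAG-Dbf4 libraries and 1.73 and 1.59 in the FLAG-dbf4-aaHH libraries. CEN13 raised these means, and the medians over the 16 centromeres were 2.46 and 2.08 for FLAG-Dbf4 and 1.25 and 1.30 for FLAG-dbf4-aaHH. Windows 2 kb or more away had medians of 0.793 to 0.892 in the 4 libraries. A signal of 2 or more was seen at 14 and 9 centromeres for FLAG-Dbf4 and at 3 and 3 for FLAG-dbf4-aaHH, where 2.56%, 3.23%, 2.35% and 2.35% of all windows outside the rDNA reached it. Above the 99th percentile of all windows (2.57 to 2.74) there were 4 and 3 centromeres for FLAG-Dbf4 and 2 and 1 for FLAG-dbf4-aaHH, so most centromeres were not among the highest windows of the genome. No input library was used here, so a window that is high for other reasons cannot be told apart from binding by its level alone. High windows lay elsewhere in the cores too. The one 3 kb left of CEN11 in MRP17 had 7.04 and 6.61 in FLAG-Dbf4 and 6.86 and 5.70 in FLAG-dbf4-aaHH, its neighbour 3.5 kb left in AUR1 had 3.96 and 3.84 against 4.93 and 4.94, and the one 2.5 kb left of CEN9 in INP51 had 3.48 and 2.99 against 3.20 and 3.13. The values of the proteins overlapped in MRP17 and INP51, and those of FLAG-dbf4-aaHH were the higher ones in AUR1.

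**Figure D5:**
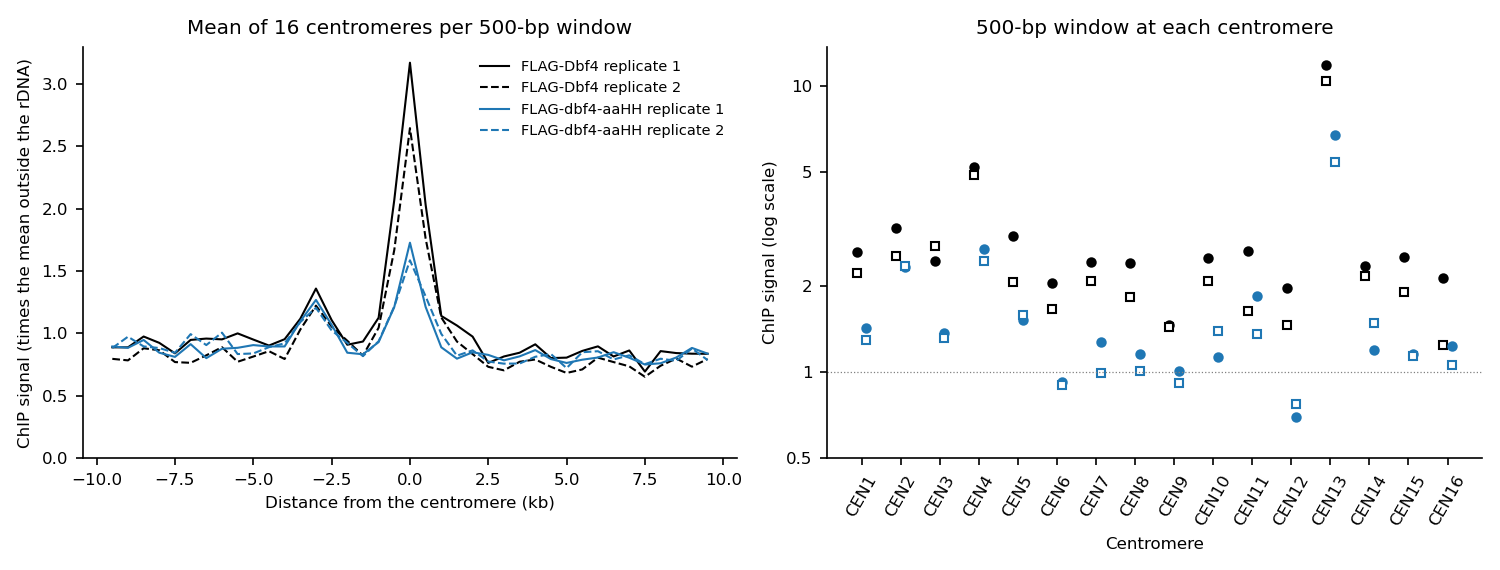
Left, ChIP signal (times the mean outside the rDNA) in 500-bp windows against distance from the centromere in kb, mean of the 16 centromeres, 1 line for each library. Right, the window on each centromere in each library on a log scale, with FLAG-Dbf4 in black, FLAG-dbf4-aaHH in blue, replicate 1 filled and replicate 2 open; FLAG-Dbf4 averages 3.17 and 2.65 at the centromere and FLAG-dbf4-aaHH 1.73 and 1.59.

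At 15 of the 16 centromeres both FLAG-dbf4-aaHH libraries lay below both FLAG-Dbf4 libraries, which was so for 16.6% of all windows outside the rDNA, and CEN11 was the exception. The largest differences were at CEN13, with 11.9 and 10.4 in FLAG-Dbf4 and 6.75 and 5.40 in FLAG-dbf4-aaHH, at CEN4, with 5.20 and 4.86 against 2.68 and 2.43, and at CEN3, with 2.44 and 2.76 against 1.37 and 1.31. CEN13 was the highest centromere in each library and lost 5.06, but kept 54.6% of its signal. The smallest were at CEN9, with 1.46 and 1.44 against 1.01 and 0.916, at CEN2, with 3.18 and 2.54 against 2.32 and 2.34, and at CEN16, with 2.13 and 1.24 against 1.23 and 1.06. The signal kept ran from 43.0% at CEN12 to 81.4% at CEN2; CEN12 and CEN11 are named here after their values were seen.

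How these differences were called rested on the library size. The rDNA took 51.2% and 67.9% of the read ends in FLAG-Dbf4 and 55.9% and 61.6% in FLAG-dbf4-aaHH. With all read ends as library size, edgeR called none of the 16 windows, and 0.0% of all windows (12 of 16 at an unadjusted p under 0.05, all 16 values below 0, median -0.86). With the rDNA left out of the library size, a choice made after these shares were seen, 9 windows were lower and none higher, against 0.075% of all windows lower: CEN3, CEN4, CEN6, CEN7, CEN8, CEN10, CEN12, CEN13 and CEN15. There the change was -1.24 ± 0.23 at CEN12 (adjusted p = 0.0045), -0.98 ± 0.19 at CEN4, -0.87 ± 0.20 at CEN13 and -0.94 ± 0.20 at CEN3, and -0.31 ± 0.19 at CEN2, which was not called. On this library size 2 windows were called without FLAG-Dbf4 replicate 1, 10 without FLAG-Dbf4 replicate 2 and none without either FLAG-dbf4-aaHH replicate. DESeq2 called 3. Over all 624 windows of the cores edgeR called none with all read ends and 17 without the rDNA, all lower. With all read ends and without FLAG-Dbf4 replicate 1 the direction turned, with 3 core windows higher, none lower and a median of 0.41, and without FLAG-Dbf4 replicate 2 there were 20 lower and none higher.

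At the core peaks the ChIP signal stayed below the mean over the centromeres in every library. The CEN2 left peak had 1.21 and 1.31 in FLAG-Dbf4 and 1.23 and 1.24 in FLAG-dbf4-aaHH, above the medians of windows 2 kb or more away. The CEN12 right peak, at 0.765 and 0.397 and at 0.737 and 0.575, lay below them. The study reports weaker but detectable enrichment at its own set of CEN-proximal origins. Without an input library these windows cannot show that binding was absent. At the 14 core peaks the ChIP signal had medians of 0.893 and 0.755 in FLAG-Dbf4 and 0.901 and 0.750 in FLAG-dbf4-aaHH, and its highest value in any library was 1.32. Over the 14 peaks, the share of the IP peak kept in the finger alleles and the share of the ChIP signal kept in FLAG-dbf4-aaHH at the centromere had a Pearson's r of 0.31 and a Spearman's rho of 0.23. This is a description over regions that share the same libraries, and the paired peaks of CEN1 and of CEN16 share a ChIP value. With only the higher WT peak of each centromere, which leaves out CEN1 left and CEN16 right, r was 0.43 and rho 0.38 (12 centromeres). Without CEN6, whose peak was weak in WT, they were 0.61 and 0.47 over 13 peaks and 0.79 and 0.70 over 11 centromeres. Without CEN2 as well, they were 0.34 and 0.33 over 12 peaks and 0.63 and 0.60 over 10 centromeres, so their size rested on which peaks were used. CEN16 right kept 5.95% of its IP peak in Zn*1 and 6.58% in Zn*2, against 44.4% and 49.1% at CEN16 left, with 68.1% of the ChIP signal kept at their centromere.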

How the data were processed

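QBU files deposited by the authors hold, for each 50-bp bin, the count of reads that overlap it, the bases covered, the bin width and the fraction covered; only the counts were used. In the deposited ChIP-seq files every line is an aligned read end, whose mapping quality is a score from 1 to 42. The submitters' processing notes name Bowtie2, SAMtools and bedtools; versions and the genome build are not given in the sources used here, and read ends of quality 0 do not occur. A read adds to every bin it spans, so counts of neighbouring bins are not independent.

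Bins were summed into 10-kb tiles outward from each centromere, 1-kb tiles centred on it and 500-bp windows on IP peaks; ChIP read ends were counted in 500-bp windows by their midpoints. All 20 IP (or Total) libraries were fitted together with edgeR 4.0.16 (quasi-likelihood, R 4.3.3), with strain as the only factor, library sizes equal to the total over bins, a mean of at least 10 counts, and Benjamini-Hochberg adjustment over all tiles, windows or peaks (threshold 0.05). All 32 arms, 16 centromere tiles and 14 peaks passed the filter. The code was tested on simulated data. DESeq2 1.42.0 and the settings in the closing section were alternatives.

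The members and lists were chosen with earlier results of these data known. Regions named are the arms with the 3 highest and lowest WT signals, the 3 largest and smallest changes in ctf19∆ and in the dbf4-Zn* alleles, both arms of CEN10, arms called against the majority, the core peaks and the CENs with the 3 largest and smallest ChIP differences; other arms are named after their values were seen. Gene names come from the RefSeq table of R64. No sequence was printed, as none was used here.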

Additional observations from a re-analysis of the deposited data

Results flagged for a closer look

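Changes under the same contrast differed between strain backgrounds at these arms, by the interaction term of the edgeR fit over all tiles; values are differences of log2 changes. On loss of Ctf19, 26 of 32 arms changed differently with and without altered Fkh1 and Fkh2. The difference was 1.998 at CEN2 left, 1.045 at CEN2 right, 1.676 at CEN13 left and 0.6505 at CEN14 right, where the signal fell by a smaller fold in the forkhead mutant. It was -1.972 at CEN11 right, where the signal fell by a larger fold. In the Zn finger alleles, 20 arms differed with and without Fkh1 for dbf4-Zn*1 and 19 for dbf4-Zn*2. At CEN14 right the difference was 1.253 for dbf4-Zn*1 and 1.147 for dbf4-Zn*2, and at CEN13 left 0.9639 and 1.141. At CEN7 left it was -0.9543 and -1.123, and at CEN10 left -0.4527 and -0.8509.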

How the results depend on the processing

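With library sizes taken from the Total libraries, 0 arms, 0 centromere tiles and 0 core peaks were called in each IP comparison, and the sign turned at CEN10 right in dbf4∆C (0.2848), CEN11 right in fkh1∆ (-0.2251), CEN2 left and right on loss of Ctf19 in the forkhead mutant (0.0642 and 0.1505), the CEN2 left peak of the triple mutant (0.3052), and, for the difference made by Fkh1, at CEN7 left (0.0491) and CEN10 left (0.5198) in dbf4-Zn*1 and CEN10 left in dbf4-Zn*2 (0.0563). With 5-kb tiles that difference was called at 10 arms for dbf4-Zn*1 and 12 for dbf4-Zn*2, and signs turned at CEN10 right in dbf4∆C (0.5625), fkh1∆ dbf4-Zn*1 (0.055) and fkh1∆ dbf4-Zn*2 (0.1336), at CEN11 right in dbf4-Zn*1 (0.4187) and dbf4-Zn*2 (0.3968), and at CEN14 right for the difference made by Fkh1 in dbf4-Zn*2 (-0.009) and by Fkh1 and Fkh2 on loss of Ctf19 (-0.8871). With 500-bp tiles 5 centromeres were called in dbf4-Zn*1, 3 lower and 2 higher, and 5 in fkh1∆.

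With TMM factors and with DESeq2, 14 and 14 core peaks were called in fkh1∆ fkh2-dsm, 11 and 13 in fkh1∆, 10 and 12 in fkh1∆ dbf4-Zn*1 and 12 and 12 in fkh1∆ dbf4-Zn*2, the last 2 strains with more higher than lower. In Total 11 and 12 arms were called in ctf19∆ and 12 and 15 in fkh1∆ fkh2-dsm, and 11 and 13 without the rDNA in the library size. Signs turned in ctf19∆ at CEN10 left (-0.0388 and -0.0591), CEN4 right (-0.18 and -0.1983), CEN11 left (-0.0546 and -0.0765) and CEN14 left (-0.474 and -0.4971), between the Zn finger alleles and ctf19∆ at CEN14 right (0.1442 and 0.1559 for dbf4-Zn*1, 0.2692 and 0.2623 for dbf4-Zn*2), at the CEN2 left peak in dbf4-Zn*1 (0.5206 and 0.6535), dbf4-Zn*2 (0.393 and 0.5035) and the triple mutant (0.047 and 0.2262), at CEN2 left in the triple mutant (-0.3448 and -0.3455), and with DESeq2 at the CEN6 right peak in dbf4-Zn*1 (0.6575). With peaks of at least 4 times the mean, 1 was called in fkh1∆. With the Total signal as offset CEN11 right turned to -0.2178 in fkh1∆ dbf4-Zn*1 and -0.1654 in fkh1∆ dbf4-Zn*2. The cause of these shifts was not tested.

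In the ChIP comparison, 9 centromere windows and 17 core windows were called with TMM factors and without the rDNA, 9 and 16 with a mapping quality of at least 30, 2 and 4 with each start and strand counted once, and 3 and 5 with DESeq2. Without the rDNA and without FLAG-Dbf4 replicate 1 there were 2 and 2, and without replicate 2 there were 10 and 21.

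Leaving out 1 library at a time gave 5 to 6 centromere tiles in dbf4-Zn*1, 5 to 8 in fkh1∆, 0 to 3 core peaks in fkh1∆ fkh2-dsm, 0 to 10 centromere windows and 0 to 20 core windows in ChIP, where the 3 core windows called without FLAG-Dbf4 replicate 1 were higher and the 20 without replicate 2 lower. In Total it gave 5 to 10 arms in dbf4∆C, 2 to 4 in dbf4-Zn*1, 4 in dbf4-Zn*2, 2 to 5 in ctf19∆, 1 to 7 in fkh1∆ fkh2-dsm and 3 to 6 in the triple mutant. The replicate numbers gave no pairing common to all strains: deviations of same-numbered IP samples correlated above 0.1 in 15 of 45 strain pairs and below -0.1 in 11. The correlations ran from -0.221 to 0.346 in IP and from -0.254 to 0.502 in Total. A count over all pairs cannot show whether some strains shared a batch. With the replicate block the counts stayed within 1.5 times of those without it, as in ctf19∆ with 27 arms called. No filter on low counts left the 46 counts within the same bound. The smallest IP libraries were fkh1∆ fkh2-dsm replicate 2 (281531 counts), fkh1∆ fkh2-dsm replicate 1 (469607) and ctf19∆ replicate 2 (490889), and depth limits the low arms and the 1-kb tiles most there.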
